A study of Mus musculus with 2 samples.

Results

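The 9 genes followed here work around serotonin and the other monoamines and were measured in islet cells of WT and Npc1-/- mice: Fev, Tph1, Tph2, Ddc, Slc18a1, Slc18a2, Prlr, Tac1 and Cartpt. They are 9 of the 31053 genes counted and were taken by symbol from the gene list of the deposited matrices. Slc18a1 and Tac1 were chosen by their ratio of summed UMIs between barcodes with and without Fev in an earlier look at the same data, so their place there is a description and not a result. The hydroxylases that begin serotonin synthesis, Tph1 and Tph2, were close to the limit of detection in both libraries, so the genes are called by their names below and no cell is called serotonergic.

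Islets were taken from 2-week-old female mice and dispersed to single cells, and 1 droplet 3' RNA library was made for each genotype from the islets of 3 mice pooled. The Npc1-/- mice, called KO in the sample labels, lack Npc1, the lysosomal cholesterol exporter, in the whole body; they are on a C57BL/6J background and were bred from heterozygous parents, with wild type littermates as WT. No other allele and no treatment was given to either genotype. Because each genotype is 1 pooled library, the spread between mice cannot be seen, no test between the genotypes was possible, and each ratio below compares these 2 libraries. Intervals are exact 95% intervals that cover counting error only.

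Serotonin is made from tryptophan by a tryptophan hydroxylase, Tph1 outside the brain and Tph2 in neurons, and then by the aromatic amino acid decarboxylase Ddc, which also makes dopamine. Slc18a1 and Slc18a2 are the vesicular monoamine transporters that load the product into secretory granules. Fev is an ETS family transcription factor known for its part in serotonergic neurons and in endocrine progenitors of the pancreas. Prlr is the prolactin receptor, through which pregnancy raises serotonin production in β cells, and Tac1 (substance P precursor) and Cartpt (the CART peptide precursor) encode peptides that are stored in granules of neurons and some endocrine cells.

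Promoter sequences are shown for the transcription factor and for both peptide genes, because a search for an ETS core (Fev is itself an ETS factor) or a cAMP response element found a match in each of these 3. The sequences come from RefSeq on GRCm38.p6 and hold the 250 bases before the annotated start, written 5′ to 3′ on the strand of the gene, with the matched letters in capitals. Fev lies on the minus strand (window chr1:74885409-74885658), Tac1 on the plus strand (chr6:7554811-7555060) and Cartpt on the minus strand (chr13:99900684-99900933).

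Fev: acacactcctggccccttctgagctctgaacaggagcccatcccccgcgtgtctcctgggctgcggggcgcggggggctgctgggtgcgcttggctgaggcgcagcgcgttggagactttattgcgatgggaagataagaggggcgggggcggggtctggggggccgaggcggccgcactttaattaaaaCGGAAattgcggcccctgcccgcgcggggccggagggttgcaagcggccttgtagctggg

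Tac1: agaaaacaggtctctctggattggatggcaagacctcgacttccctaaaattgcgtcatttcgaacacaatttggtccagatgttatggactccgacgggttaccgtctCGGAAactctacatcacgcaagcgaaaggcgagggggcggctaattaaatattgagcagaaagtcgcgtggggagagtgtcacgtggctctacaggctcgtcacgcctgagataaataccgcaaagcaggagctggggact

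Cartpt: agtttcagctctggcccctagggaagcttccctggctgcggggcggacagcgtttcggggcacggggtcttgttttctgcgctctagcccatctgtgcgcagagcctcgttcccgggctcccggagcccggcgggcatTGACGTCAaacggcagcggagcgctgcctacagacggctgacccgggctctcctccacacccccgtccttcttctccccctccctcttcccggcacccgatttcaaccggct

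The ETS core searched was CGGAA on both strands, and 25.2% of 32851 mouse promoter windows of this length held it. The members had 12 windows from 8 genes, with none for Slc18a1. The core was in 3 of 12, a share near that of all windows: in Fev the match began 60 bases before the start, in Tac1 141 and in one of the Prlr windows 218. The cAMP response element searched was TGACGTCA, which reads the same on both strands and was in 1.55% of the windows. Cartpt held it 112 bases before the start. The Fev and Cartpt windows were rich in G and C (68.0% and 66.8%, against a median of 52.4% over all windows), and Tac1 was at 51.2%. A match only says that these letters are there.

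In the gene annotation of the same assembly Fev spans chr1:74881509-74885419, Ddc chr11:11814101-11898144, Prlr chr15:10177238-10349180, Tac1 chr6:7554879-7565834 and Cartpt chr13:99898489-99901091. Tph1 spans chr7:46644641-46672537, Tph2 chr10:115078641-115185022, Slc18a1 chr8:69037711-69089235 and Slc18a2 chr19:59260896-59296012. These spans do not share every start with the RefSeq windows above. The Cartpt window lies wholly inside the Cartpt span, and the Tac1 and Fev windows run into theirs. On the same strand Prlr overlaps the gene model Gm21973, and reads that fall in both cannot be told apart. On the opposite strand Ddc overlaps 1700042O10Rik, Slc18a1 overlaps Gm15716 and Atp6v1b2, and Slc18a2 overlaps Gm29261, and the strand setting of the counting is not given in the sources used here.

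Of 8569 WT and 7646 Npc1-/- barcodes, 4628 and 4269 passed the filters (over 1000 genes, under 50000 UMIs, under 10% mitochondrial and at most 0.1% haemoglobin UMIs), with 94096566 and 94392651 UMIs in all and medians of 18905 and 21381 per barcode. The libraries shared 3 of the kept barcode sequences. Npc1 itself had 790 UMIs (8.40 counts per 1000000 UMIs, CPM) in the WT and 391 (4.14 CPM) in the Npc1-/- library, so it was lower but present in the library labelled KO, and where the deletion lies relative to the counted 3' end is not given in the sources used here. Each barcode was classed by its leading hormone if that took at least 10% of its UMIs, which gave 1833 WT and 1826 Npc1-/- insulin-led barcodes, 1048 and 857 led by glucagon, 189 and 141 by somatostatin, 411 and 442 by Ppy and Pyy (PP-led), and 1147 and 1003 with no leading hormone. The PP-led class also carried somatostatin (31230 and 35333 CPM), so it is named here by its rule and not as a cell type. The barcodes with no leading hormone were mostly other cells by their fixed markers, endothelial-like (430 WT, 441 Npc1-/-), mesenchymal-like (313, 331), Schwann-like (36, 42) and immune-like (295, 35). A further 26 WT and 123 Npc1-/- barcodes gave at least 1% of their UMIs to the granins Chga and Chgb, the storage proteins of endocrine granules, and are called granin-rich.

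Most Fev UMIs of the WT library lay in glucagon-led and PP-led barcodes, and in the Npc1-/- library barcodes with no leading hormone also held a large part. The granin-rich barcodes among these carried Fev in both libraries, but they were fewer in WT (61 Fev UMIs over 26 barcodes) than in Npc1-/- (571 over 123). In both libraries Fev was higher in granin-rich barcodes than in any hormone-led class. In glucagon-led barcodes it reached 37.4 CPM in WT (691 UMIs) and 37.6 CPM in Npc1-/- (646 UMIs), with a UMI in 45.4% and 46.2% of barcodes. In PP-led barcodes it was at 35.1 and 42.7 CPM, and in somatostatin-led barcodes at 27.6 and 35.4 CPM. In WT the PP-led interval (31.1–39.4 CPM) overlapped both of its neighbours, while those of glucagon-led (from 34.636 CPM) and somatostatin-led barcodes (up to 34.628 CPM) lay just apart. Barcodes with no leading hormone were lower in WT, at 8.54 CPM (6.82–10.6), but highest of all classes in Npc1-/-, at 53.3 CPM (49.1–57.8). Insulin-led barcodes were lowest in both, at 1.497 CPM (82 UMIs, WT) and 5.503 CPM (298 UMIs, Npc1-/-). As a share of all Fev UMIs, glucagon-led barcodes held 56.7% in WT and 31.8% in Npc1-/-, while the barcodes with no leading hormone held 6.97% and 29.6%. Fewer cells of a type and less RNA per cell cannot be told apart in such sums.

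**Figure D1:**
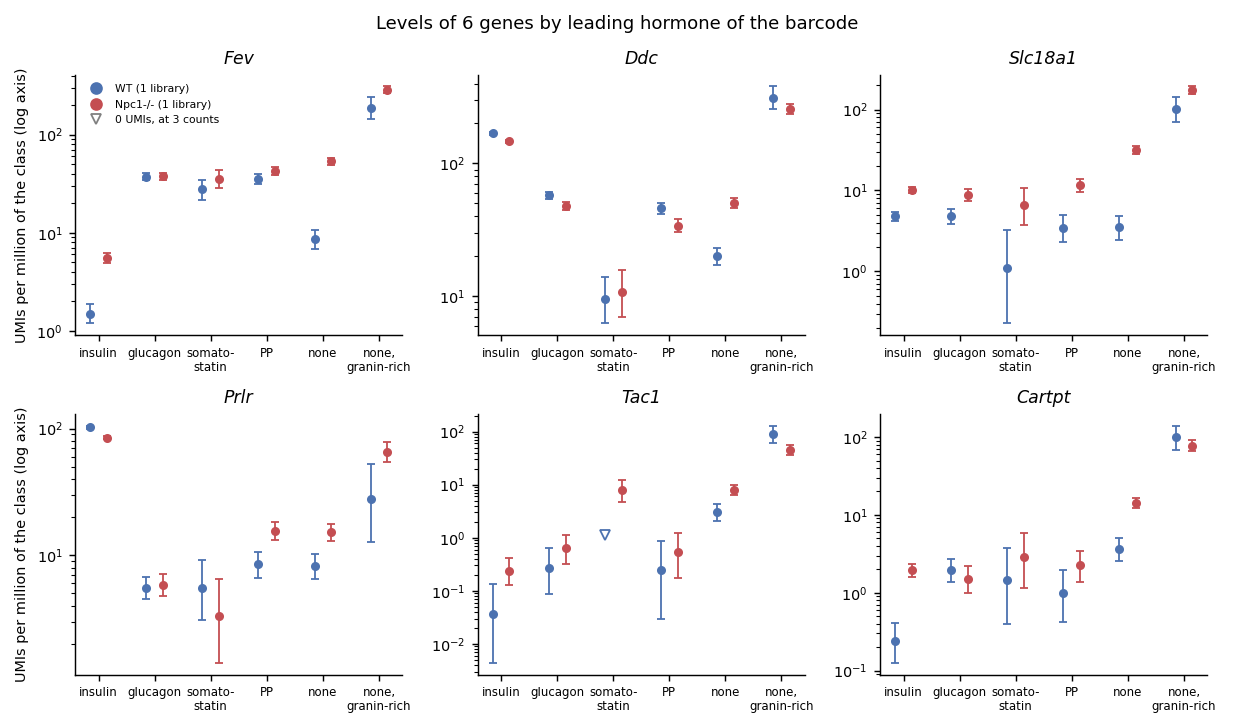
Levels of 6 of the genes in each class of barcodes, as CPM of the class on a log axis; each point is 1 library with its exact Poisson interval, and open triangles stand at 3 counts where none was seen. Fev is highest outside insulin-led barcodes and Prlr is highest in them. Ddc is highest in the granin-rich barcodes with no leading hormone, and next in the insulin-led ones.

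With every barcode thinned to 5000 UMIs, Fev was found in 17.8% of glucagon-led WT barcodes and 16.8% in Npc1-/-. Endothelial-like barcodes, which should lack Fev, gave 0.783% in WT and 0.244% in Npc1-/- (2.33% and 2.04% before thinning, at 2.56 and 1.83 CPM and median depths of 7715.5 and 10289 UMIs). Insulin-led WT barcodes were at 0.553% after thinning, no higher than that background, and those of the Npc1-/- library at 2.61% (1.92–3.45%); before thinning the shares were 3.27% and 11.4% at median depths of 30417 and 30094 UMIs. Over the whole insulin-led class the WT share was thus at background and the Npc1-/- share above it, but WT barcodes with 20 to 40% insulin UMIs held Fev at 8.13 CPM (5.69–11.3), above the endothelial-like 2.56 CPM (1.28–4.58). Mesenchymal-like barcodes held 0 WT and 2 Npc1-/- Fev UMIs.

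Relative to the median gene of each class, Fev differed between the libraries in the insulin-led barcodes by 1.75 on the log2 scale (1.40–2.13), that is 3.37-fold higher in Npc1-/- over a WT value that was at background, and in barcodes with no leading hormone by 2.56 (2.24–2.91), 5.90-fold higher. In glucagon-led barcodes the log2 ratio was -0.02 (-0.18–0.14), in somatostatin-led 0.34 (-0.12–0.81) and in PP-led 0.22 (0.00–0.44), all under 2-fold. The insulin-led Fev barcodes had a median doublet score of 0.109 in WT (0.065 over the class) and 0.078 in Npc1-/- (0.063 over the class), and 25 of 60 and 42 of 208 were among the barcodes that scored highest up to the expected number of doublets. The part of doublets in the Fev counts of this class was not tested beyond leaving these barcodes out.

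Among the barcodes with no leading hormone, 36 of 1147 held a Fev UMI in WT (3.14%, 2.21–4.32%) and 134 of 1003 in Npc1-/- (13.4%, 11.3–15.6%), a ratio of shares of 4.26 (2.93–6.33). At 5000 UMIs per barcode the shares were 2.12% (19 of 897) and 9.56% (85 of 889). The median depth of the class was 6923 UMIs in WT and 9014 in Npc1-/-. Granin-rich barcodes made up 17 of the 36 WT and 112 of the 134 Npc1-/- Fev barcodes, and of the granin-rich barcodes 65.4% (17 of 26) and 91.1% (112 of 123) held Fev. Their Fev level was 189 CPM in WT and 286 CPM in Npc1-/-, a log2 ratio of 0.63 (0.26–1.05). The granin-rich barcodes of the libraries were not alike in depth or granin content, with median UMIs of 11696.5 and 14886 and median granin shares of 2.69% and 6.32%. The granin-rich Fev barcodes had median doublet scores of 0.150 in WT and 0.046 in Npc1-/-, and 6 of 17 and 8 of 112 were among the expected doublets. With all expected doublets left out the ratio of Fev shares was 5.21 (3.42–8.22). Their median mitochondrial share was 6.11% and 6.51%, so a filter at over 2000 genes and under 5% kept only 6 and 13 of them, and with it the ratio of Fev shares was 1.65. Where a leading hormone had to take 20% of UMIs the ratio was 1.94.

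**Figure D2:**
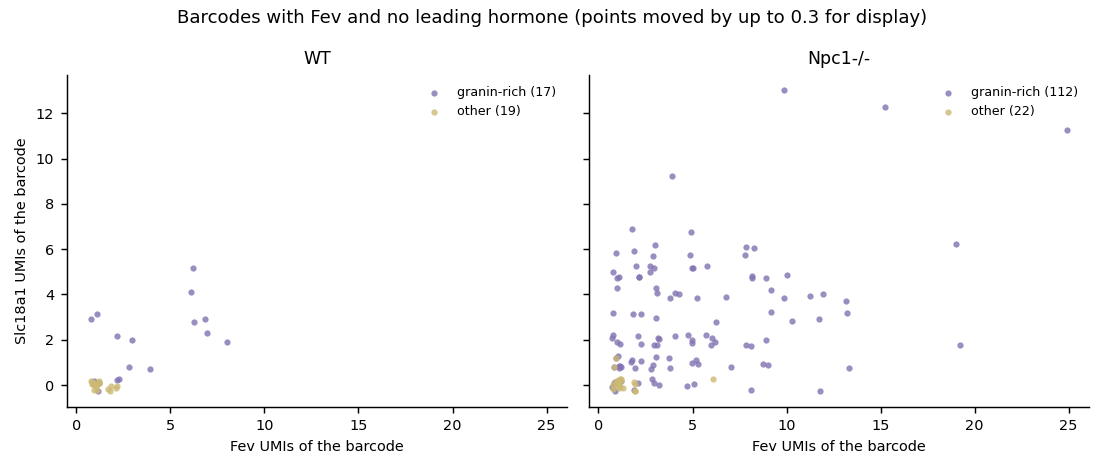
Each point is 1 barcode with a Fev UMI and no leading hormone, placed by its Fev UMIs and its Slc18a1 UMIs, in the WT library (36 barcodes) and the Npc1-/- library (134). Granin-rich barcodes hold nearly all the points above 0 for Slc18a1, and up to 8 Fev UMIs in WT and 25 in Npc1-/-.

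The first step of serotonin synthesis was at the limit of detection in both libraries. Tph1 had 18 UMIs in 17 WT barcodes and 19 in 14 Npc1-/- barcodes, and Tph2 21 UMIs in 21 and 19 in 19. Tph1 UMIs lay mostly in glucagon-led barcodes (11 of 18 in WT and 10 of 19 in Npc1-/-). Tph2 had 9 WT UMIs in somatostatin-led and 8 Npc1-/- UMIs in PP-led barcodes, the highest number of any class in each library. Tph2 had 0 UMIs in barcodes with no leading hormone, for which a floor of 3 counts is 0.302 CPM in WT and 0.266 CPM in Npc1-/- (exact upper limits 0.371 and 0.327 CPM). None of the Tph1, Tph2 or Slc18a2 barcodes was immune-like or held 3 UMIs of the mast cell or platelet markers, the cell types that store serotonin in blood and connective tissue. A Fev UMI was in the same barcode in 8 of 17 WT and 10 of 14 Npc1-/- Tph1 barcodes, and in 6 of 21 and 12 of 19 Tph2 barcodes. Of all kept barcodes 17.6% in WT and 23.9% in Npc1-/- held Fev, and of glucagon-led ones 45.4% and 46.2%. With so few barcodes these counts are not read as co-expression. Of the Fev barcodes with no leading hormone, 0 of 36 in WT and 2 of 134 in Npc1-/- held either hydroxylase.

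Ddc, the second step, was foremost a gene of insulin-led barcodes. Its level there was 168 CPM in WT (9221 UMIs) and 147 CPM in Npc1-/- (7942 UMIs), with a UMI in 86.0% and 81.3% of barcodes, and these barcodes held 84.7% and 82.1% of all Ddc UMIs. It was lower in glucagon-led (57.6 and 47.9 CPM), PP-led (45.9 and 34.1) and somatostatin-led barcodes (9.58 and 10.7). Endothelial-like barcodes gave 6.75 and 3.83 CPM. The somatostatin-led CPM lay within counting error of that background in WT (6.26–14.0 and 4.52–9.69 CPM) and above it in Npc1-/- (6.98–15.7 and 2.37–5.86 CPM). In Npc1-/-, however, a single barcode held 9 of the 26 somatostatin-led UMIs, and the share of barcodes with Ddc was not above background. After thinning it was 2.16%, against 2.20% of endothelial-like barcodes. Before thinning the shares were 7.80% (3.96–13.5%) and 4.76% (2.97–7.19%), with overlapping intervals. In barcodes with no leading hormone Ddc had 199 UMIs in WT and 569 (50.4 CPM) in Npc1-/-, and in the granin-rich ones at 313 and 258 CPM.

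Ddc was lower in Npc1-/- in the 3 classes with the most counts per barcode and higher in barcodes with no leading hormone. Relative to the median gene, the log2 ratio was -0.32 in insulin-led (-0.36 to -0.27), -0.30 in glucagon-led (-0.43 to -0.16) and -0.49 in PP-led barcodes (-0.71 to -0.27), none of them 2-fold. In barcodes with no leading hormone it was 1.26, or 2.39-fold (2.03–2.83), while within the granin-rich ones it was -0.24 (-0.54–0.09). Under the stricter filter of over 2000 genes and under 5% mitochondrial UMIs the ratio in barcodes with no leading hormone turned to -0.47.

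Of the vesicular transporters only Slc18a1 was well counted. In insulin-led barcodes it was at 4.80 CPM in WT (263 UMIs) and 10.0 CPM in Npc1-/- (543 UMIs), in glucagon-led at 4.81 and 8.80 CPM, in PP-led at 3.44 and 11.5 CPM and in somatostatin-led at 1.10 and 6.58 CPM. Barcodes with no leading hormone had 3.52 CPM in WT (35 UMIs) and 31.6 CPM in Npc1-/- (357 UMIs). The Npc1-/- library was thus higher in each of the 5 classes. The log2 ratios relative to the median gene were 0.94 in insulin-led (0.73–1.16), 0.84 in glucagon-led (0.45–1.24), 1.67 in PP-led (1.08–2.34) and 3.08 in barcodes with no leading hormone (2.59–3.64, or 8.43-fold). In somatostatin-led barcodes the ratio was 5.22-fold (1.69–31.7), resting on 3 WT UMIs and 16 Npc1-/- UMIs in 9 barcodes, with up to 5 in 1 barcode. The granin-rich barcodes again held nearly all of the no-leading-hormone counts, 102 CPM in WT (14 of 26 barcodes) and 174 CPM in Npc1-/- (102 of 123), a log2 ratio of 0.79. Endothelial-like barcodes had 0 and 2 Slc18a1 UMIs. Slc18a2, the transporter of neurons and platelets, had 21 UMIs in 20 WT barcodes and 14 in 12 Npc1-/- barcodes, and its counts allow no comparison between the libraries. Of these, 9 and 7 were in barcodes with no leading hormone (0.905 and 0.620 CPM). Schwann-like barcodes held 5 in WT, in 4 barcodes (18.4 CPM, 5.98–43.0), and 3 in Npc1-/-, all in 1 barcode (10.3 CPM, 2.13–30.1).

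Prlr was the member most tied to insulin: insulin-led barcodes held 95.5% of its UMIs in WT and 91.5% in Npc1-/-. Its level there was 103 CPM in WT (5633 UMIs, a UMI in 82.8% of barcodes) and 84.7 CPM in Npc1-/- (4588 UMIs, 75.7%), and the other classes lay between 3.29 and 15.6 CPM. The log2 ratio was -0.40 in insulin-led barcodes (-0.46 to -0.34), 0.82 in PP-led (0.40–1.26) and 0.80 in barcodes with no leading hormone (0.42–1.20), all below 2-fold. The last of these rested on the granin-rich barcodes, where Prlr was at 27.9 CPM in WT from 9 UMIs and 65.7 CPM in Npc1-/- from 131, and it turned to -0.32 under the stricter filter.

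The peptide genes were sparse and concentrated in few barcodes. Tac1 had 39 UMIs in WT and 139 in Npc1-/-, of which 30 (in 4 barcodes) and 91 (in 30 barcodes) were in barcodes with no leading hormone, at 3.02 and 8.06 CPM. The log2 ratio of this class was 1.33 (0.74–1.99), but in the granin-rich barcodes it was -0.96, at 89.9 CPM in 3 WT barcodes and 45.1 CPM in 29 Npc1-/- barcodes, and the stricter filter turned the class ratio to -1.74. In somatostatin-led barcodes Tac1 had 0 UMIs in WT and 19 in 2 Npc1-/- barcodes, 12 of them in 1. That is 7.02-fold higher with WT set at a floor of 3 counts, and the exact lower limit was 5.17-fold. Cartpt had 36 UMIs in 7 WT barcodes with no leading hormone and 162 in 40 Npc1-/- barcodes, at 3.62 and 14.3 CPM, a log2 ratio of 1.90 (1.39–2.48). Within granin-rich barcodes it was at 99.2 and 77.2 CPM, a log2 ratio of -0.33 (-0.87–0.28). Insulin-led barcodes had 13 Cartpt UMIs in WT and 105 in Npc1-/-, 7.28-fold higher (4.21–14.6), of which 41 were in 1 barcode, and both levels were under the 5 CPM needed to be counted below.

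**Figure D3:**
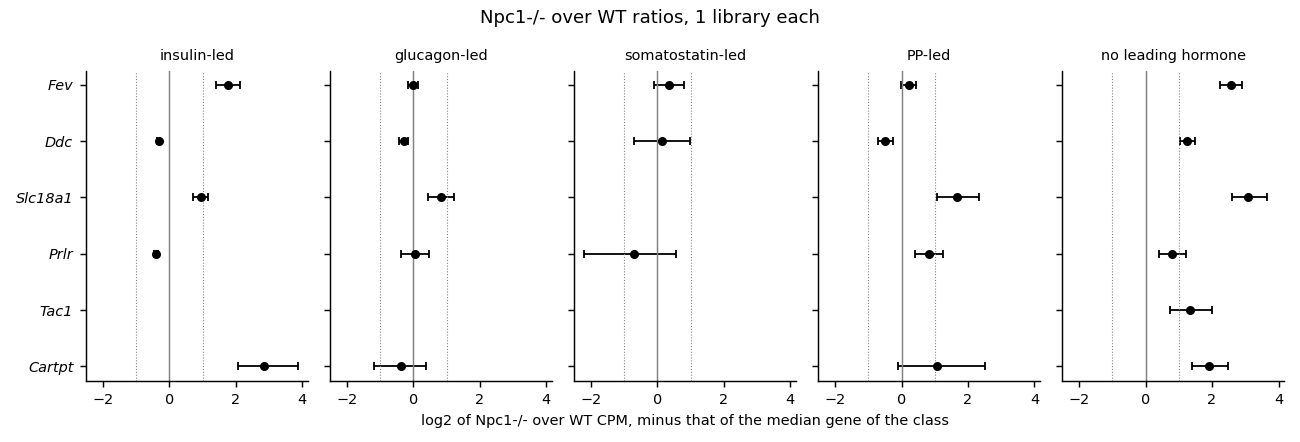
Log2 ratio of Npc1-/- over WT CPM of the members by class, minus that of the median gene of the class, with counting intervals and 1 library each; dotted lines mark 2-fold. Ratios with fewer than 20 UMIs over both libraries are not drawn, among them Slc18a1 and Tac1 in somatostatin-led barcodes. The points past 2-fold to the right are Fev and Cartpt in insulin-led barcodes and Slc18a1 and Cartpt in PP-led. In barcodes with no leading hormone they are Fev, Ddc, Slc18a1, Tac1 and Cartpt. Cartpt was under 5 CPM in the insulin-led and PP-led barcodes of both libraries.

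A gene was counted where it had at least 5 CPM in either library, and called where the difference was at least 2-fold relative to the median gene. In insulin-led barcodes 1 of 4 members so counted was called higher in Npc1-/- (Fev), where 0.169% of all genes were, and 0 lower, where 0.497% were. In glucagon-led barcodes 0 of 4 were called in either direction, against 0.121% higher and 0.313% lower over all genes. The somatostatin-led class had 2 of 5 higher (Slc18a1 and Tac1) against 1.97%, and 0 lower against 1.59%. The PP-led class had 1 of 4 higher (Slc18a1) against 0.251%, and 0 lower against 0.692%. In barcodes with no leading hormone 5 of 6 were higher (all but Prlr) against 2.46%, and 0 lower against 3.78%. Since the members were chosen with these data known and a member passes the 5 CPM minimum in the library where it is high, the counts describe these 2 libraries.

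In the barcodes with no leading hormone Ddc, Slc18a1 and Tac1 were found more often with Fev than without it in both libraries. At 5000 UMIs per barcode Ddc was present in 42.1% of 19 WT Fev barcodes and 5.13% of the 878 others, and in 51 of 85 Npc1-/- Fev barcodes and 4.35% of 804 others. Slc18a1 was present in 36.8% against 0.456% in WT and in 51.8% against 2.11% in Npc1-/-. Slc18a1 was picked for this pattern. Ddc was not, but it too was chosen with earlier results of these data known. The barcodes without Fev were mostly endothelial-like, mesenchymal-like and immune-like, so the contrast is also one between kinds of cells. Prlr was in 10.5% against 4.10% in WT, with overlapping intervals (1.30–33.1% and 2.89–5.63%), and in 23.5% against 3.11% in Npc1-/-. Tac1, also picked for it, was in 10.5% of WT and 23.5% of Npc1-/- Fev barcodes and in 0.114% and 0.124% of the others. Cartpt was in 0 of the 19 WT Fev barcodes and in 14.1% of the Npc1-/- ones, against 0.456% and 1.24%. Tph2 had 0 UMIs in this class. At 5000 UMIs Slc18a2 was in 0 of the Fev barcodes of either library, and without thinning in 0 of 36 in WT and 2 of 134 in Npc1-/-. Without thinning, Ddc was in 15 of 36 WT and 90 of 134 Npc1-/- Fev barcodes, Slc18a1 in 12 and 100, and both genes in 10 and 82.

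**Figure D4:**
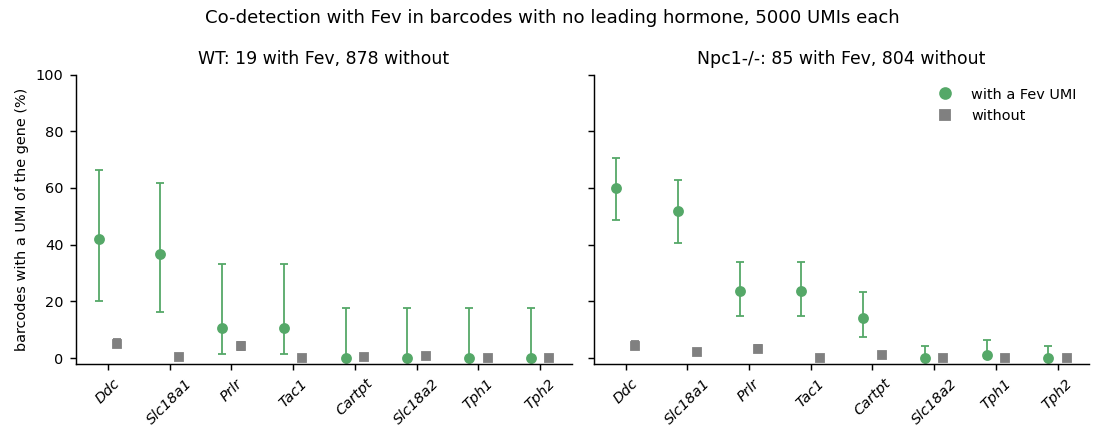
Share of barcodes with no leading hormone that hold a UMI of each gene, with and without a Fev UMI in the barcode, all thinned to 5000 UMIs, with exact binomial intervals; 19 against 878 barcodes in WT and 85 against 804 in Npc1-/-. The shares with Fev lie above those without it for Ddc, Slc18a1 and Tac1 in both libraries.

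The shares lay closer within one kind of barcode. Within the granin-rich barcodes alone Ddc was in 64.6% of 79 Npc1-/- barcodes with Fev and 44.2% of 43 without, and in WT in 7 of 12 and 7 of 14. Slc18a1 was in 55.7% and 34.9% in Npc1-/- and in 58.3% and 28.6% in WT. Thinning moves barcodes that lose their Fev UMI into the group without it, which draws these shares together. Without thinning, Ddc was in 80.4% of 112 Npc1-/- barcodes with Fev and 63.6% of 11 without, and Slc18a1 in 87.5% and 36.4%. In WT Ddc was then in 13 of 17 and 6 of 9, and Slc18a1 in 12 of 17 and 2 of 9. Tac1, picked for this pattern, was in 25.3% against 0 of 43 in Npc1-/- and in 2 of 12 against 1 of 14 in WT, and without thinning in 28 of 112 against 1 of 11 in Npc1-/-. Cartpt in Npc1-/- was at 15.2% with and 23.3% without, but without thinning it was in 38 of 112 with and 1 of 11 without. Both peptides were found in some barcodes: 28 Npc1-/- Fev barcodes with no leading hormone held Tac1, 38 held Cartpt and 7 held both, and in WT 3 held each and 0 both. With only 3 barcodes for each peptide in WT, these held all 29 Tac1 and all 17 Cartpt UMIs of the WT Fev barcodes. In Npc1-/- the 3 highest of 28 and 38 barcodes held 31 of 89 and 28 of 116, so the libraries are not compared in this.

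In glucagon-led and insulin-led barcodes the shares of Ddc with and without Fev had overlapping intervals at 5000 UMIs. Its levels over all UMIs lay apart in glucagon-led Npc1-/- barcodes, at 55.8 CPM with Fev (50.9–61.1) and 40.02 CPM without (35.9–44.5). They lay apart the other way in insulin-led WT barcodes, at 129 CPM with Fev (114–146) and 170 CPM without (166–173). In glucagon-led WT and insulin-led Npc1-/- barcodes the intervals of the levels overlapped. In glucagon-led barcodes Ddc was in 26.1% with Fev and 21.1% without in WT, and in 17.7% and 16.3% in Npc1-/-, at 5000 UMIs. In insulin-led barcodes it was in 5 of 10 with Fev and 50.5% without in WT and in 48.9% of 47 and 46.4% in Npc1-/-. Slc18a1 in insulin-led Npc1-/- barcodes was in 14.9% with Fev and 5.01% without. For Slc18a1 the intervals did not overlap (6.20–28.3% and 4.04–6.13%). Cartpt in insulin-led Npc1-/- barcodes was in 4.26% with Fev and 0.398% without, and before thinning in 8.17% (4.83–12.8%) and 1.24% (0.757–1.90%). In PP-led Npc1-/- barcodes Slc18a1 was in 9.30% with Fev and 3.49% without (intervals 4.10–17.5% and 1.82–6.01%). Ddc in these was in 8.14% and 11.6% at 5000 UMIs but in 34.5% and 20.4% before thinning, where the Fev barcodes were deeper (medians of 21351 and 18019 UMIs).

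Over all 2934 genes with enough counts to be compared between Fev barcodes and other barcodes with no leading hormone, 15.5% were at least 2-fold higher with Fev in both libraries, so a high ratio here was common. Ordered by the lower of the ratios of the libraries, the first genes after Fev were Slc18a1 (155-fold in WT, 89.8-fold in Npc1-/-), the granin Chgb (47.9 and 63.2), Neurog3, the transcription factor of endocrine progenitors (25.9 and 49.5), Cd164l2, Cldn4, Tspan8, Pdzk1ip1, Chga and Kcnmb2. Ddc was at rank 20, with 14.6-fold and 31.2-fold. Genes were ranked only with at least 50 CPM in the Fev barcodes of both libraries. Tac1 was therefore not ranked (42.1 CPM in Npc1-/-), though its ratios were 436-fold and 155-fold, over 1 and 2 UMIs in the other barcodes. Ratios of this kind chose Slc18a1 and Tac1 in an earlier look, and they are given as description.

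Within insulin-led barcodes Fev and Slc18a1 were highest where insulin was lowest. In Npc1-/- Fev was at 51.5 CPM in the 22 barcodes with 10 to 20% insulin UMIs, 16.3 CPM at 20 to 40%, 3.47 CPM at 40 to 60% and 0 UMIs above 60%. In WT the same bands gave 14.3 CPM (4 UMIs in 28 barcodes), 8.13, 0.865 and 0.520 CPM. Slc18a1 followed the same order in Npc1-/-, at 46.1, 17.2, 8.72 and 4.58 CPM, but lay between 3.12 and 5.65 CPM in every WT band. Ddc and Prlr were higher in the bands above 40% insulin. Ddc was at 96.4, 112, 176 and 147 CPM in WT and 108, 115, 152 and 148 CPM in Npc1-/-. Prlr was at 85.7, 57.6, 107 and 111 CPM in WT and 51.5, 49.2, 90.8 and 89.4 CPM in Npc1-/-. The granins moved with these bands in Npc1-/-, with median shares of 1.49%, 0.977%, 0.765% and 0.607% from the lowest to the highest band. In WT they were 0.395%, 0.642%, 0.507% and 0.432%, highest at 20 to 40% insulin. The part of the granins in the result was not tested.

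**Figure D5:**
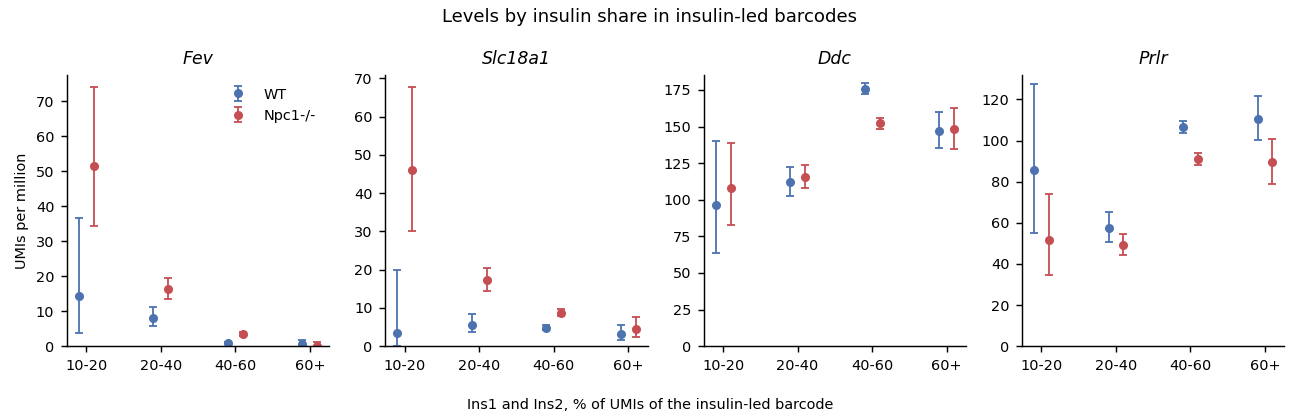
Levels of the genes named above each panel in insulin-led barcodes, by the share of UMIs from Ins1 and Ins2 in the barcode, as CPM with exact Poisson intervals for the WT and the Npc1-/- library. Fev and Slc18a1 in Npc1-/- are highest in the lowest insulin band, at 51.5 and 46.1 CPM, and lowest in the highest band.

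Ucn3, a marker of mature β cells, split the insulin-led barcodes in a like way. The split was by a Ucn3 UMI after thinning, while the levels given are over all UMIs. Barcodes called without Ucn3 here can therefore hold it at full depth. Fev was at 0.870 CPM in WT barcodes with Ucn3 and 2.26 CPM without, and at 3.396 and 7.08 CPM in Npc1-/-. Prlr was higher with Ucn3, at 114 against 89.5 CPM in WT and 100.7 against 72.4 CPM in Npc1-/-, and so was Ddc, at 174 against 161 and 155 against 141 CPM. Slc18a1 was the same with and without Ucn3 within counting error in WT (4.79 and 4.83 CPM) and lower with it in Npc1-/- (8.49 and 11.2 CPM). Cartpt was at 0.552 CPM with and 2.98 CPM without Ucn3 in Npc1-/-, the latter from 91 UMIs. Barcodes with no Ucn3 UMI after thinning were fewer in WT (842 against 965 with it) and more numerous in Npc1-/- (1039 against 765). Their median depths before thinning were a little lower (29580.5 UMIs against 31632 in WT, and 29057 against 31499 in Npc1-/-).

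Across 17 profiles of classes and libraries the members followed each other in pairs. Pearson's r of log levels was 0.92 for Slc18a1 and Cartpt, 0.85 for Ddc and Slc18a1, 0.84 for Fev and Slc18a1, 0.82 for Fev and Cartpt, and 0.23 for Fev and Prlr. These profiles share 2 libraries and their depth, so the values are descriptions. A profile needed 30 barcodes, so granin-rich barcodes gave one in Npc1-/- (123 barcodes) and none in WT. That profile held Fev at 286, Slc18a1 at 174 and Cartpt at 77.2 CPM, and how far r rests on it was not tested. Among 10592 genes the 3 most like Fev were Wfdc16 (0.973), Pik3c2g (0.968) and Cnot6l (0.963), and those most like Ddc were Gm30551 (0.966), Nell1 (0.948) and Tmem163 (0.947). Slc18a1 was nearest to Fa2h (0.953), Lhx1os (0.933) and Slc25a44 (0.930), and Prlr to AC078895.1 (0.924), Fam151a (0.920) and Slc2a2, the glucose transporter of β cells (0.889). Tac1 was nearest to Arel1 (0.865), Lyrm4 (0.861) and Cartpt (0.831), and Cartpt to Wif1 (0.979), Slc25a44 (0.925) and Slc18a1 (0.916).

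Few other genes of the monoamine pathway passed 2-fold, as was so for genes in general. In the list of 12 synthesis genes 7 or 8 passed the minimum in each class, and 0 differed 2-fold in any hormone-led class. Over all genes 0.121% to 1.97% were higher there and 0.313% to 1.59% lower, so 0 of so few is near that share. In barcodes with no leading hormone Ddc alone was past 2-fold (2.46% of all genes were higher and 3.78% lower). The list median there was 0.28 on the log2 scale relative to the median gene. Pcbd1 and Gch1, which provide the tetrahydrobiopterin cofactor of the hydroxylases, were highest in somatostatin-led barcodes, at 259 (WT) and 243 CPM (Npc1-/-) for Pcbd1 and at 249 and 214 CPM for Gch1. In the list of 9 transport genes 3 were counted, Slc18a1, the amino acid carrier subunit Slc3a2 (169 and 192 CPM in barcodes with no leading hormone) and the plasma membrane monoamine transporter Slc29a4 (34.6 and 36.6 CPM in somatostatin-led barcodes). Of 8 breakdown genes 3 to 5 were counted and 0 differed 2-fold in any class, again near those shares. Among their highest genes were the aldehyde dehydrogenase Aldh2 and the sulfotransferase Sult1a1 in barcodes with no leading hormone (180 and 151 CPM, and 58.1 and 70.9 CPM). Of 14 serotonin receptors 0 reached the minimum in the 4 hormone-led classes and 1 in barcodes with no leading hormone.

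Among 12 transcription factors of the serotonergic list, Fev was the only one past 2-fold in insulin-led barcodes (0.169% of all genes were higher and 0.497% lower). Insm1 was there at 87.0 and 89.4 CPM, Nkx2-2 at 55.6 and 69.3 CPM and Foxa2 at 51.5 and 49.2 CPM. These are factors of endocrine development in the islet. In barcodes with no leading hormone Nkx2-2 joined it, at 13.5 (WT) and 31.6 CPM (Npc1-/-; log2 ratio 1.15). In the list of 15 genes of prolactin receptor signalling 8 to 11 were counted and 0 differed 2-fold in any class. Over all genes at most 2.46% were higher and 3.78% lower in a class, so this too is near the general share. Its highest genes beside Prlr were the growth hormone receptor Ghr, with WT at 124 and Npc1-/- at 116 CPM in somatostatin-led barcodes, and Socs2, a target and inhibitor of the pathway, with WT at 65.9 and Npc1-/- at 76.2 CPM in barcodes with no leading hormone.

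Of 13 peptide genes 5 were counted in barcodes with no leading hormone, of which Tac1, Cartpt and Ghrl were higher and Penk lower (2.46% and 3.78% of all genes), Penk at 15.6 and 3.54 CPM, while the highest of the list, the β cell peptide Iapp, was at 45018 and 44203 CPM in insulin-led barcodes. The Ghrl value of 910 CPM in Npc1-/- against 6.53 CPM came almost wholly from 1 granin-rich barcode without Fev, which held 10185 of its UMIs. Cck and Ghrl were lower in PP-led barcodes (5.77 and 2.35 CPM, and 474 and 207 CPM), as were 0.692% of all genes. In somatostatin-led barcodes Pdyn, Cck and Ghrl were lower in Npc1-/- (each 6 UMIs against 24, 24 and 28) and Tac1 was higher. Of all genes 1.59% were lower there and 1.97% higher. Penk, Cck and Pdyn were named after their values were seen. Of 14 endocrine progenitor genes 4 were higher in barcodes with no leading hormone, namely Neurog3 (5.03 and 13.6 CPM), Neurod1 (23.4 and 59.4), Chgb (876 and 5840) and Nkx6-1 (24.0 and 68.2). The other of the 3 highest genes of this list, Sox4, was at 363 and 406 CPM there. This class differed in its makeup as well: the immune markers summed to 3456 (WT) and 1265 CPM (Npc1-/-), the acinar markers to 741 and 3860 CPM and the pan-endocrine markers to 3091 and 13577 CPM. The part of the acinar RNA was not tested, and with barcodes holding UMIs of at least 2 immune markers left out the ratio of Fev shares was 3.31 and the Fev log2 ratio 2.35.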

How the data were processed

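The deposited files hold raw UMI counts per gene and barcode, which per the submitters' processing notes the authors made with Cell Ranger 3.1.0 on mm10 (Seurat 4.0.3 is also named). Counts were used as deposited. The labels name the v3 kit of the 10x system and the study's methods v2, and neither was needed. Barcodes were filtered and classed by leading hormone as given above. UMIs were summed per class and library and scaled to 1000000 (CPM). Ratios are log2 of CPM with 0.5 counts added, minus the value of the median gene of the class. Intervals are exact: Poisson for CPM, Clopper-Pearson for shares and, for ratios, binomial given the sum of both counts. They hold no error between mice. Thinning drew 5000 UMIs per barcode and left out shallower ones. Scrublet in scanpy 1.11.5 passed its own threshold for 65 WT (1.40%) and 40 Npc1-/- barcodes (0.937%), so the highest-scoring 317 and 261, the expected numbers, were left out as an alternative instead. Python 3.11.15 with numpy 2.4.6, scipy 1.17.1 and pandas 2.3.3, and R 4.3.3 with edgeR 4.0.16 (TMM factors as an alternative scaling) were used, and the scripts were tested on simulated data. No model of changed genes was fitted, since there is 1 library per genotype.

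The members and gene lists were chosen with earlier results of these data known. The text names the 9 members, in each pathway list the 3 highest genes that reach 20 CPM in a class and those past 2-fold, the 3 genes most like each member, and the 10 genes leading Fev barcodes. A few genes that this rule names are not reported here.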

Additional observations from a re-analysis of the deposited data

Results flagged for a closer look

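The log2 ratio of Ddc relative to the median gene had opposite signs in different classes: -0.32 in insulin-led, -0.30 in glucagon-led and -0.49 in PP-led barcodes, and 1.26 in barcodes with no leading hormone. Prlr did likewise, with -0.40 in insulin-led barcodes against 0.82 in PP-led and 0.80 in those with no leading hormone. With 1 library per genotype these differences between classes were not tested.

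The barcodes left out for a mitochondrial share of 10% or more (2628 in WT, 2395 in Npc1-/-) also held members of the list. Fev was at 10.0 CPM there in Npc1-/- (7.66–12.9) and 5.72 CPM in WT (4.17–7.65). Slc18a1 was at 13.3 CPM (10.6–16.5) and 8.26 CPM (6.38–10.5). These barcodes enter no comparison of the report.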

How the results depend on the processing

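Of the alternatives for the genotype ratios of single members, 254 of 275 stayed within the counting interval of the main value. So did 365 of 450 for levels, 92 of 110 for co-detection shares and 8 of 12 for the ratio of Fev shares. The count of members past 2-fold stayed the same or within 1.5-fold in 17 of 22. A ratio whose interval held 0 could change sign within it, as Prlr in glucagon-led barcodes did (-0.11 to 0.3). The ratio of Fev shares in barcodes with no leading hormone (4.26) became 1.65 with over 2000 genes and under 5% mitochondrial UMIs, 1.94 where the leading hormone needed 20%, 6.39 for at least 2 Fev UMIs, and 1.39 in granin-rich barcodes only, the last chosen after seeing the data. The Fev log2 ratio of that class (2.56) became 1.37, 2.92 and 1.39 with the stricter filter, without expected doublets and at 20%. The stricter filter reversed Ddc (-0.47), Prlr (-0.32) and Tac1 (-1.74) there. Ddc in Npc1-/- Fev barcodes (51 of 85) became 36.4% with it, 41.3% at 20% (15.7% in WT) and 31.8% at 2500 UMIs. Cartpt in granin-rich Npc1-/- barcodes was at 15.2% with Fev and 23.3% without, reversed. Without thinning it was not reversed there, at 33.9% with Fev and 9.09% of 11 barcodes without. Members higher by 2-fold (9 of 23) became 4 with the stricter filter and 14 with no CPM minimum, and members lower (0) became 1 at 20%, 3 with no minimum and 1 at 1.5-fold. With no minimum, members with very few UMIs are counted too. The share over all genes was not computed for these settings, so these counts have no background beside them. The stricter filter leaves fewer barcodes, and otherwise the cause was not tested. Sets that leave out barcodes with immune markers were also added after seeing the data. Depth limits Tph1, Tph2 and Slc18a2, each at most 21 UMIs per library. Leaving out a replicate was not possible with 1 library per genotype. No paired analysis was possible because each genotype is 1 library and no test was made.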

Other observations

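Most Tac1 UMIs of these libraries lay outside the barcodes used above. Barcodes with 50000 UMIs or more held 148 Tac1 UMIs in WT (13.7 CPM over 168 barcodes) and 420 in Npc1-/- (16.4 CPM over 370 barcodes), nearly all in 4 barcodes with 131 and 17 UMIs in WT and 291 and 108 in Npc1-/-. These 4 had no leading hormone, at most 0.33% insulin and 0.054% granin UMIs. The list of sympathetic or enteric neuron markers was at 3698 to 7246 CPM in them, where the median kept barcode had 27.5 CPM in WT and 34.4 CPM in Npc1-/-, so they are neuron-like by that list. They held 154 to 297 UMIs of Prph, 84 to 210 of Tubb3 and 23 to 50 of Elavl4, while Th and Dbh, the enzymes of noradrenaline synthesis, were at 0. Vip (160 to 447 UMIs) and Npy (142 to 366) were chosen after their values were seen. Of the other members Slc18a2 had 1 to 6 UMIs in each, and Fev, Slc18a1, Tph1 and Tph2 had 0.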
